A study of Mus musculus with 3 samples.

Results

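The genes described here encode the machinery that docks, primes, fuses and recovers synaptic vesicles, together with their relatives in general membrane trafficking. They were chosen by gene name from the protein-coding genes of the deposited table: the Syt, Syn, Stx, Vamp, Snap, Stxbp, Sv2, Rab3, Cplx and Rims families, plus Syp, Synpr, Synj1 and Nsf, leaving out 1 Stxbp gene. The rule found 72 genes of the 54532 in the table, of which 22046 were protein-coding. The rule uses gene names only, but the group was proposed with earlier results of these data known. Hippocampal RNA of 10-month-old mice, all of the C57BL/6 strain, was sequenced in 3 libraries. The WT library carried neither the tau transgene nor a Zbp1 mutation by its label, the PS19 library carried the PS19 transgene, and the PS19 Zbp1+/- library carried the same transgene with 1 Zbp1 allele lost. The PS19 transgene places a mutant human tau under the mouse Prnp promoter, so tau aggregates form in neurons of these animals with age. The labels give neither the sex of the animals nor whether several were pooled.

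A synaptic vesicle fuses when a SNARE protein in its membrane, synaptobrevin (a Vamp protein), zips together with syntaxin and SNAP-25 of the plasma membrane. Munc18 proteins (Stxbp genes) hold syntaxin ready, complexins clamp the assembled complex, and a synaptotagmin triggers fusion when calcium enters. Rab3 and RIM proteins hold vesicles at the release site, synapsins tether the reserve pool, and NSF pulls spent SNARE complexes apart. Other syntaxins, Vamp proteins and SNAP-25 relatives do the same work at the Golgi, endosomes and plasma membrane of every cell type, glia included.

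Values are in FPKM as the authors deposited them: fragments divided by gene length in kilobases and by library size. Where 3 values follow a gene's name, they are those of WT, PS19 and PS19 Zbp1+/-, in that order. Differences are given as differences of log2(FPKM + 1), which understate the change of weakly expressed genes. A gene counted as called when it differed by at least 1 on that scale, that is 2-fold of FPKM + 1. A gene slightly past 2-fold in FPKM can thus stay uncalled. Fold thresholds of calls below are on this scale. With 1 library per genotype, differences lack any check by replicates and no p-value was computed. Whole reads could be recovered from the FPKM values and summed to 16746085, 16400328 and 17109734. The members took 1.71%, 1.54% and 1.81% of these reads. Ratios of reads per library size, as implied by the FPKM values, carry exact (Clopper-Pearson) 95% intervals. These cover counting error only, not the choice of library size, and compare libraries, not genotypes.

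Several facts of the libraries touch every comparison. Zbp1 itself had 5, 91 and 0 reads. The WT level was also near 0, so these reads do not check the labelled Zbp1 genotype. Xist had 11062, 13350 and 0 reads, and the Y-linked Ddx3y 0, 0 and 711, so the loss of a Zbp1 allele and the sex of the animal cannot be told apart. Reads fell on 24741, 25397 and 21408 genes. Setting all libraries to an equal total of FPKM (TPM) shifted the median of all genes by 0.12 in PS19 minus WT, by -0.27 in PS19 Zbp1+/- minus PS19 and by -0.15 in PS19 Zbp1+/- minus WT. Differences near 0 therefore depend on the scaling.

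The levels of the members spanned several orders of magnitude, with the neuronal release genes at the top. By mean level, members near the top were Cplx2 at an FPKM of 257, Vamp2 at 245, Cplx1 at 241, Rab3a at 237, Snap25 at 204, Syn1 at 183, Syp at 177, Syt11 at 159, Syt1 at 143 and Nsf at 124. Cplx1 led in PS19, Vamp2 in WT and Cplx2 in PS19 Zbp1+/-, so the order at the top differed between libraries. Of the 72 members, 65 reached an FPKM of 1 in at least 1 library, and the same 65 entered all 3 comparisons. The other 7 stayed below it. Among those, Syn3 had 59, 132 and 126 reads, Syt15 had 14, 46 and 31, and Stx11, a syntaxin of immune cells, had 5, 24 and 2. Syt8, Vamp9, Cplx4 and Stx19 had 3 reads or fewer in each library. Syn3 shares 1733 exon bases with the oppositely oriented Timp3, so reads of the pair may not be separable.

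**Figure D1:**
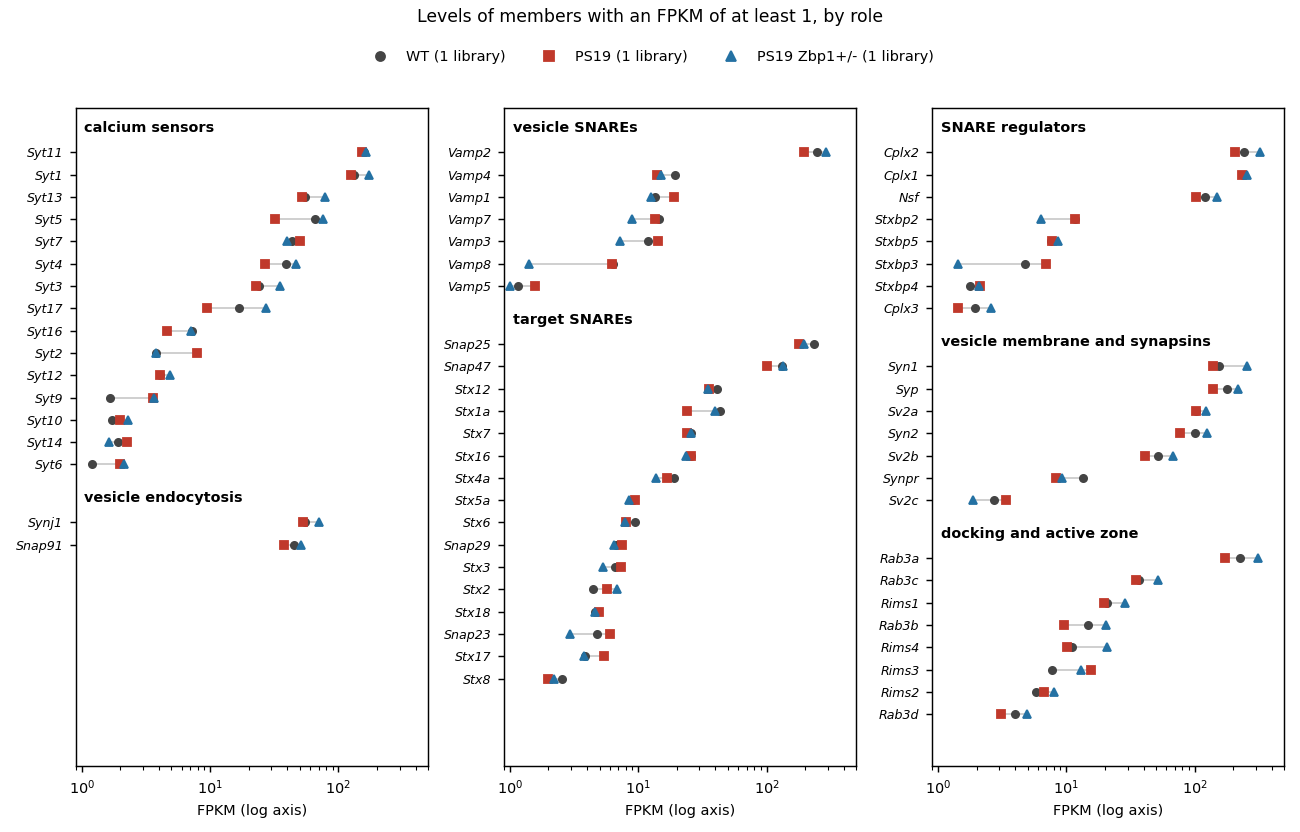
FPKM (log axis) of members that reached an FPKM of 1, grouped by role, with 1 point per library (WT circle, PS19 square, PS19 Zbp1+/- triangle). Complexin 2 spans 207 to 321, Vamp8 sits at 1.42 in PS19 Zbp1+/- against 6.37 and 6.21 in the other libraries, and Syt5 sits at 32.1 in PS19 against 66.2 and 76.2.

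Promoters are shown for 5 members that stand for the 3 patterns below: Syn1 for the abundant synaptic genes, Syt2 and Vamp1 for genes high in PS19, and Stxbp3 and Vamp8 for genes low in PS19 Zbp1+/-. Each runs 5′ to 3′ from 250 bases before to 50 bases after the RefSeq start on GRCm38.p6. They were taken from chrX:20920869-20921168 (minus strand, Syn1), chr1:134646362-134646661 (plus, Syt2), chr6:125215331-125215630 (plus, Vamp1), chr3:108840453-108840752 (minus, Stxbp3) and chr6:72390618-72390917 (minus, Vamp8). Capitals mark exact matches, on either strand, to the motifs named after the sequences.
Syn1: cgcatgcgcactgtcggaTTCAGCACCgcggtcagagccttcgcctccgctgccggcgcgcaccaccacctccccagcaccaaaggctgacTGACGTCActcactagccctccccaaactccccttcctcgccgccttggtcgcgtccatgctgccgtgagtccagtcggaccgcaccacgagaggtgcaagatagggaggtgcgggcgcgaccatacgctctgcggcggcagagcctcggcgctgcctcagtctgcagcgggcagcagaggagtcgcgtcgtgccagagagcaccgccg
Syt2: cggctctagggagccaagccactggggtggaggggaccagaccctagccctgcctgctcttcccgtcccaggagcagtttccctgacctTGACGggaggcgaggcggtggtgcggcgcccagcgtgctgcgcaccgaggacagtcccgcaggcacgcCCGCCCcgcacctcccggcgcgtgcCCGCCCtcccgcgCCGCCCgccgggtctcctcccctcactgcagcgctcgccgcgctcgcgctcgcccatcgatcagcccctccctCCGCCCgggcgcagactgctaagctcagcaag
Vamp1: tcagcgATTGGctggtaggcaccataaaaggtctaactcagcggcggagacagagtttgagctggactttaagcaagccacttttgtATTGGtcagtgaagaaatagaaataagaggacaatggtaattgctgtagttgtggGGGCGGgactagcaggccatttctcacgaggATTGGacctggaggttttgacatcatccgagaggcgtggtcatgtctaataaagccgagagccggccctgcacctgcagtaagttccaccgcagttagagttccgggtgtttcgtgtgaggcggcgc
Stxbp3: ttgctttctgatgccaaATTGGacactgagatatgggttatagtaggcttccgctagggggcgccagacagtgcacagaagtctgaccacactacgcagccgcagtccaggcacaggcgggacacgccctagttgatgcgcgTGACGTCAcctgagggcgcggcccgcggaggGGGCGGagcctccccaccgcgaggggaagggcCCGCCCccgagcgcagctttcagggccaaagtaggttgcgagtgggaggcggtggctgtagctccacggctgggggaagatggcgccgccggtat
Vamp8: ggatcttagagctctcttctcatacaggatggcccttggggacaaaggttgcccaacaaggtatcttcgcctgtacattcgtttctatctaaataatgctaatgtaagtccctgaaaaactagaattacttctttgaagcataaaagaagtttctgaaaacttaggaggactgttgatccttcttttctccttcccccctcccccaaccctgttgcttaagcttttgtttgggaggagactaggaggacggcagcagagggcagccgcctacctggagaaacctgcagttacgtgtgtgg

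The motifs searched were the left arm (TTCAGCACC) and the right arm of the RE1 element that the repressor REST binds, the cAMP response element (TGACGTCA) and its short form (TGACG, contained in the former), the GC box (GGGCGG), the TATA box (TATAAA) and the CCAAT box (CCAAT). A promoter in the RefSeq-derived table was found for 56 of the 72 members, and the one nearest the gene start was kept. The shares over all promoters count every entry of that table, so the sets were not chosen alike. The GC box occurred in 42, or 75%, of these 56 promoters and in 35.7% of all 32851 promoters. It occurred in 21 of the 26 release members with a promoter (80.8%) and in 21 of the 30 others (70.0%). The median GC content of the members' promoters was 63.8%, against 52.7% over all promoters; the part of base composition in the share of GC boxes was not tested. The left RE1 arm was found in 1 member promoter, that of Syn1 (0.371% of all promoters), and the right arm in 0 (0.137%). The full cAMP response element was found in Syn1 and Stxbp3, 3.57% of the member promoters and 1.79% of all. The TATA box was found in Rab3b, Stx3 and Sv2b, 5.36% against 13.6%. The short cAMP form was in 26.8% against 20.8% and the CCAAT box in 28.6% against 37.4%. The Vamp8 window held none of the motifs and the Vamp1 window held 3 CCAAT boxes and 1 GC box. A match is a run of letters and not a measured binding site.

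Between PS19 and WT most members were slightly lower in PS19. The median difference of the 65 members was -0.08, against -0.03 over 12703 protein-coding genes, and 43 members were lower and 22 higher. The share higher in PS19 was 33.8% of the members and 46.3% of all genes tested, so most genes were lower too. After rescaling to TPM the median of the members was 0.05. A single member was called lower, Syt5, and 0 were called higher, where the background was 0.291% lower and 2.20% higher. At 1.5-fold, 4 members were lower (background 2.71%) and 3 were higher (background 6.34%). The summed FPKM of all members was 3340 and 2888, PS19 being at 0.865 of WT, and that of 7 general neuron markers (Rbfox3, Tubb3, Map2, Eno2, Thy1, Elavl3, Elavl4) was 644 and 544, at 0.845. In bulk tissue, fewer neurons, less RNA per neuron, more glial or neighbouring tissue in the sample and the scaling cannot be told apart.

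Between PS19 Zbp1+/- and PS19 the release members were mostly higher in PS19 Zbp1+/-. The members of general trafficking or of no assigned use were more often lower. Of the 65, 42 were higher and 23 lower in PS19 Zbp1+/-, with a median of 0.14 against 0.04 over 12772 genes. The share higher was 64.6% of the members and 53.7% of all genes tested. The 37 members that serve transmitter release had a median of 0.45, with 32 higher. The 28 members of general trafficking or of no assigned use had a median of -0.10, with 10 higher. After rescaling to TPM these medians were 0.17 and -0.38, so the release members stayed above the others while both medians were lower. Scaling by total reads gave 0.26 and -0.27, with 26 of the 37 release members higher. The split followed textbook use, and every member not assigned to release was put with the others. Among those, Syt17 (1.42), Nsf (0.54), Syt16 (0.54) and Snap47 (0.42) were higher as deposited. After the GC and length correction, 12 of 27 of the others were higher and 15 lower. The 2 members called higher were Syt17 and Syt5 (background 2.0%), and the 2 called lower were Stxbp3 and Vamp8 (background 5.16%). At 1.5-fold, 14 members were higher (background 9.37%) and 7 were lower (background 12.1%). Rab3b, at 0.998, lay just under the 2-fold line. The neuron markers had a median of 0.46 in this comparison, with 7 of 7 higher. Taken relative to that median, an alternative added after the data were seen, the release members centred on -0.01 with 18 above and 19 below 0.

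Between PS19 Zbp1+/- and WT the median of the members was 0.17, against 0.01 over 12436 genes, and the release members had a median of 0.29 with 31 of 37 higher. The others had a median of -0.12 with 20 of 28 lower. No member was called higher (background 1.07%) and 2 were called lower, again Vamp8 and Stxbp3 (background 2.28%). At 1.5-fold, 5 were higher (background 6.71%) and 5 lower (background 7.12%). The neuron markers had a median of 0.29 here. The pairs of comparisons share a library each, so the values stand side by side and are not independent.

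**Figure D2:**
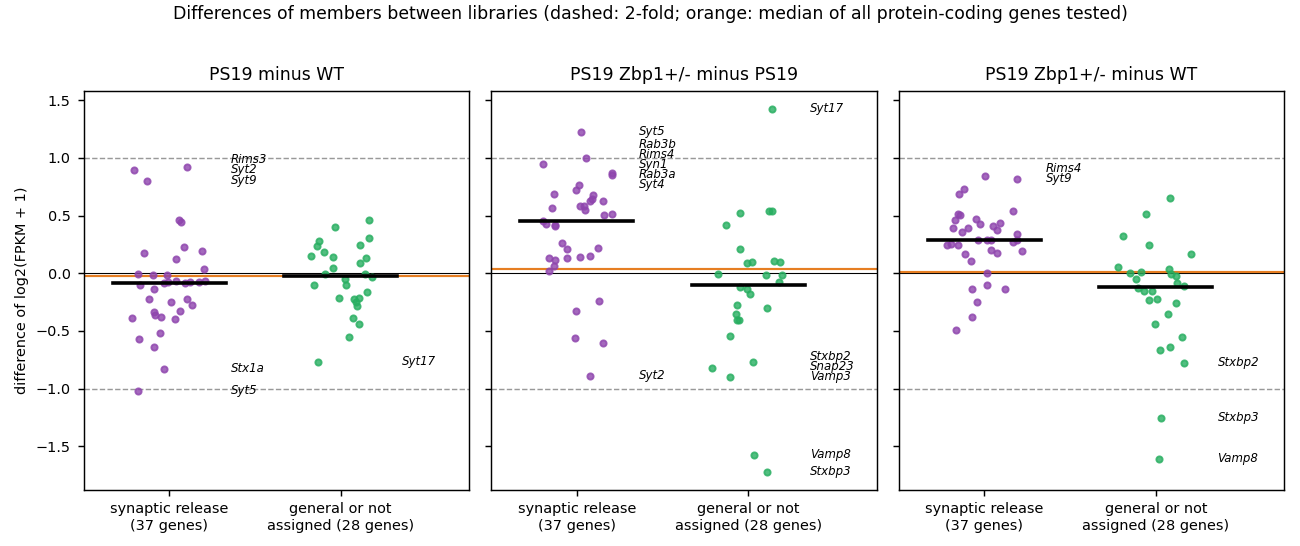
Difference of log2(FPKM + 1) for each of the 65 members in the 3 comparisons, split into 37 synaptic release genes and 28 others; black bars are medians, the orange line is the median of all protein-coding genes tested and dashed lines mark 2-fold. The release genes centre on -0.08, 0.45 and 0.29 and the others on -0.02, -0.10 and -0.12.

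Synaptotagmins include the calcium sensors of release, and 15 of 17 reached an FPKM of 1. They were grouped here by gene name, and not all of them bind calcium. Syt1, the fast sensor of most forebrain synapses (chromosome 10, 108497650 to 109010982), had FPKM values of 132, 125 and 172. The WT and PS19 values were close and PS19 Zbp1+/- stood above both, at a read ratio of 1.37 over PS19 (95% interval 1.34 to 1.40). Syt11, which does not bind calcium, was nearly level at 158, 153 and 165.

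Syt5 (chromosome 7, 4539765 to 4547541, minus strand), found on dense-core vesicles, had FPKM values of 66.2, 32.1 and 76.2 from 2719, 1319 and 2869 reads. PS19 was the low library, with a read ratio of 0.484 to WT (0.453 to 0.517), and PS19 Zbp1+/- was 2.38 times PS19 (2.23 to 2.54). Its difference between PS19 and WT was -1.02, and it was under the 2-fold line after scaling by the median ratio (-0.99), by total reads (-0.99), by TPM (-0.91), after the GC and length correction (-0.83) and relative to the neuron markers (-0.79). The Syt5 difference between PS19 Zbp1+/- and PS19, 1.22, was likewise under that line after TPM (0.96) and relative to the neuron markers (0.76). Syt17 (chromosome 7, 118380717 to 118448222, minus strand) had 16.9, 9.48 and 27.1, again lowest in PS19, with a read ratio of 0.562 (0.516 to 0.612) to WT. PS19 Zbp1+/- exceeded PS19 by 2.86 (2.64 to 3.10), the highest difference of any member at 1.42, which was 0.96 relative to the neuron markers. Syt4 had 39.0, 27 and 46.7 and Syt16 had 7.21, 4.59 and 7.10, both lowest in PS19.

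Of the 15 synaptotagmins, 6 were above WT in PS19, a count that became 11 under TPM and relative to the neuron markers. Syt2, the fast sensor of brainstem, thalamic and parvalbumin synapses (chromosome 1, 134646677 to 134762593), had FPKM values of 3.79, 7.88 and 3.79 from 499, 1041 and 458 reads. WT and PS19 Zbp1+/- were level and PS19 was 2.08 times WT (1.87 to 2.32). Syt9, another fast sensor, had 1.65, 3.61 and 3.67, so it was low in WT and level between the other libraries. Syt6 showed the same order at 1.21, 2.0 and 2.14. Syt7, a slow sensor with high calcium affinity, had 43.7, 50 and 39.7. Syt3 (24.0, 22.6 and 35.3) and Syt13 (55.2, 52.3 and 79.0) were near level between WT and PS19 and above both in PS19 Zbp1+/-, with read ratios to PS19 of 1.57 (1.45 to 1.69) and 1.51 (1.44 to 1.58). Syt12, Syt10 and Syt14 lay between an FPKM of 1.63 and 4.83.

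Vesicle SNAREs divided between neuronal and general proteins. Vamp2, synaptobrevin 2, the vesicle SNARE of most central synapses (chromosome 11, 69088490 to 69092384), had 246, 195 and 293. Vamp1, which replaces it in fast-spiking, brainstem and motor neurons, went the other way at 13.6, 19.1 and 12.6, with a read ratio of 1.41 for PS19 over WT (1.33 to 1.48). Vamp8, endobrevin, an endosomal and secretory-granule SNARE (chromosome 6, 72385223 to 72390703, minus strand), had 254, 248 and 52 reads. WT and PS19 were level, and PS19 Zbp1+/- was at 0.229 of PS19 (0.166 to 0.310). Vamp3, cellubrevin, the general recycling-endosome SNARE abundant in glia, had 12.0, 14.3 and 7.22, a ratio of 0.504 (0.441 to 0.575) to PS19. Vamp7, a lysosomal SNARE listed on an unplaced scaffold, had 14.4, 13.4 and 8.88, Vamp4 had 19.4, 14.0 and 15.0, and Vamp5 stayed between 1.0 and 1.56. All 5 of Vamp3, Vamp4, Vamp5, Vamp7 and Vamp8 were thus lower in PS19 Zbp1+/- than in WT, with differences from -0.11 to -1.61.

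Of the target SNAREs, Snap25 (chromosome 2, 136713453 to 136782428), the neuronal SNAP-25, had 234, 180 and 197, so it was highest in WT, unlike most abundant release genes. PS19 Zbp1+/- stood at 0.843 of WT (0.828 to 0.858). Its general relative Snap23 had 4.77, 5.98 and 2.94, a ratio of 0.492 (0.414 to 0.583) for PS19 Zbp1+/- over PS19. Stx1a, a neuronal syntaxin (chromosome 5, 135023482 to 135051100) had 43.6, 24.2 and 39.5, with PS19 at 0.554 of WT (0.514 to 0.596). Snap47 had 131, 100 and 134. It shares 307 exon bases with Jmjd4, which had 417, 411 and 578 reads. The general syntaxins serve the Golgi, endosomes and plasma membrane. Of Stx2, Stx3, Stx4a, Stx5a, Stx6, Stx7, Stx8, Stx12, Stx16, Stx17 and Stx18 the differences lay between -0.25 and 0.41 in PS19 minus WT and between -0.41 and 0.21 in PS19 Zbp1+/- minus PS19. In PS19 Zbp1+/- minus WT they ran from -0.44 (Stx4a) to 0.51 (Stx2). Snap29 was level at 6.73, 7.45 and 6.45. Stx18 shares 574 exon bases with Nsg1, a neuronal gene of 3459 to 4166 reads, and its level may include reads of that gene.

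The SNARE regulators include the Munc18 proteins, the complexins and Nsf. Cplx2 had 242, 207 and 321, while Cplx1, the complexin of inhibitory and fast synapses, was level at 236, 235 and 254. Nsf had 120, 103 and 150, lowest in PS19. Stxbp3, Munc18c, which acts at the plasma membrane of non-neuronal cells (chromosome 3, 108793176 to 108840526, minus strand), had 4.80, 7.0 and 1.43 from 442, 646 and 121 reads. PS19 Zbp1+/- was at 0.205 of PS19 (0.167 to 0.249) and at 0.298 of WT (0.242 to 0.366). The call against WT was lost after the GC and length correction, at -0.96. The processed pseudogene Stxbp3-ps matches 757 bases of its transcript at 98.9% identity and had 12, 24 and 11 reads, so the counts of the gene and this copy may not be fully separable. Stxbp2, Munc18-2, of secretory and immune cells, had 11.7, 11.6 and 6.4. Stxbp4 and Stxbp5 stayed between 1.76 and 2.14 and between 7.57 and 8.63. Cplx3, a complexin of retina and a few cortical neurons, had 1.94, 1.43 and 2.59.

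Proteins of the vesicle membrane and its tether were lower in PS19 in 6 of 7 genes, with a median of -0.33, and higher in PS19 Zbp1+/- than in PS19 in 6 of 7, with a median of 0.64. After rescaling to TPM these medians were -0.20 and 0.36, with 5 of 7 lower and 4 of 7 higher. Relative to the neuron markers they were -0.09 and 0.18, with 4 of 7 lower and 4 of 7 higher. Syp, synaptophysin, had 177, 138 and 216 (chromosome X, 7638471 to 7653256). Syn1, synapsin I, had 154, 140 and 256, and PS19 Zbp1+/- was 1.66 times WT (1.62 to 1.71). Syn2 had 101, 77.4 and 124. Sv2a, the target of the antiepileptic levetiracetam, was level between WT and PS19 at 103 and 102 and had 122 in PS19 Zbp1+/-, and Sv2b had 51.6, 40.9 and 67.9. Sv2c, the form of striatum and brainstem, had the opposite order at 2.72, 3.36 and 1.86. Synpr, synaptoporin, enriched at mossy fibre terminals of dentate granule cells, had 13.4, 8.24 and 9.22 and was thus low in both transgenic libraries, with ratios to WT of 0.617 (0.576 to 0.660) and 0.690 (0.644 to 0.738). Of the dentate granule markers, Prox1 had 8.76, 9.51 and 5.20, Dsp 3.86, 4.13 and 1.28, Lct 5.45, 5.35 and 2.08 and C1ql3 18.8, 12.6 and 19.3. C1ql3 alone was clearly lower in PS19 than WT, and the other 3 were lowest in PS19 Zbp1+/-; their part in the value of Synpr was not tested.

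All 8 docking and active zone genes were higher in PS19 Zbp1+/- than in WT, by 0.24 to 0.84 on the log2 scale. Of all genes tested 51.0% were higher. The count was also 8 under TPM, scaling by total reads and the GC and length correction, and 7 relative to the neuron markers. Rab3a, the main vesicle GTPase (chromosome 8, 70754679 to 70758677), had 226, 172 and 312. Rab3b had 14.8, 9.64 and 20.2 and Rab3c 36.9, 34.8 and 51.5, while Rab3d of secretory cells had 4.01, 3.12 and 4.92. Rims1, the scaffold that recruits calcium channels, had 20.7, 19.6 and 28.4 and Rims2 had 5.84, 6.74 and 7.99. The short RIMs differed: Rims4 had 11.1, 10.2 and 20.6, with PS19 Zbp1+/- at 2.02 of PS19 (1.86 to 2.20), and Rims3 (chromosome 4, 120854816 to 120896579) had 7.68, 15.5 and 12.9, with PS19 at 2.01 of WT (1.87 to 2.17). The endocytic genes Synj1, a phosphatase that strips the clathrin coat, and Snap91, a clathrin assembly protein, had 55.2, 52.8 and 70.3 and 45.1, 37.7 and 51.1.

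**Figure D3:**
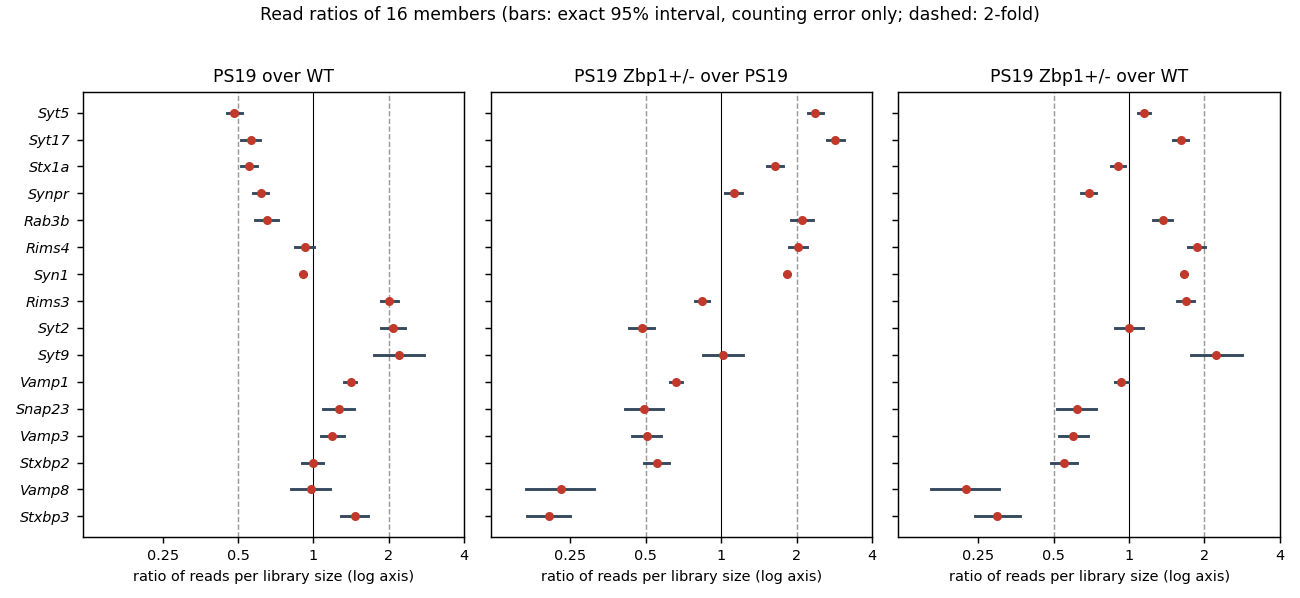
Ratio of reads per library size (log axis) for 16 members in the 3 comparisons, with exact 95% intervals for counting error as bars and dashed lines at 2-fold. Syt5 and Syt17 sit at 0.484 and 0.562 in PS19 over WT and at 2.38 and 2.86 in PS19 Zbp1+/- over PS19, and Stxbp3 and Vamp8 at 0.205 and 0.229 in the latter.

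Ratios between related members within a library do not depend on how libraries were scaled. The 12 pairs were chosen after the values were seen and are given as a description. Vamp1 stood at 5.52%, 9.78% and 4.31% of Vamp2, which is 1.77 times WT in PS19 (1.67 to 1.88). Syt2 stood at 2.86%, 6.29% and 2.20% of Syt1. Rims3 stood at 37.1%, 79.1% and 45.6% of Rims1. These 3 ratios were highest in PS19. The general proteins Vamp3, Vamp8 and Snap23 were scarcest relative to their neuronal relatives in PS19 Zbp1+/-: Vamp3 was 4.89%, 7.33% and 2.47% and Vamp8 2.59%, 3.18% and 0.486% of Vamp2, and Snap23 was 2.04%, 3.33% and 1.49% of Snap25. These general pairs were also highest in PS19. Being lowest in PS19 Zbp1+/- was not particular to general proteins, since it also held for Syt2 per Syt1 and Vamp1 per Vamp2. It held as well for Cplx1 per Cplx2 (97.4%, 113% and 79.2%) and Sv2c per Sv2a (2.65%, 3.31% and 1.53%). Rab3b per Rab3a was nearly level, between 5.60% and 6.54%.

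**Figure D4:**
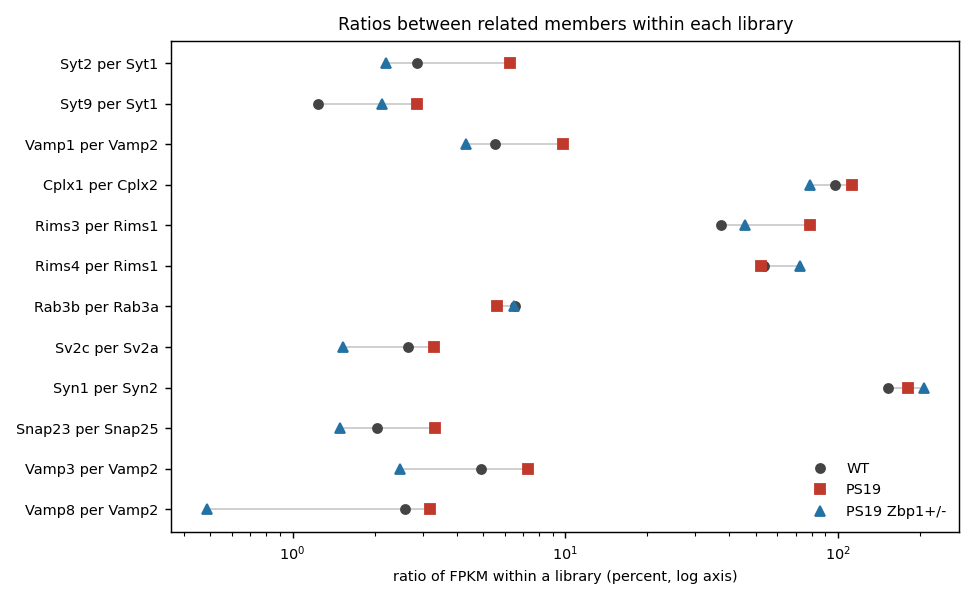
Ratio of FPKM between related members within each library, in percent on a log axis, with 1 point per library. Vamp1 per Vamp2 and Syt2 per Syt1 are highest in PS19 (9.78% and 6.29%). The 3 pairs of a general over a neuronal protein (Snap23, Vamp3 and Vamp8) are lowest in PS19 Zbp1+/-. Vamp1 per Vamp2, Syt2 per Syt1, Cplx1 per Cplx2 and Sv2c per Sv2a are lowest there too.

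Markers of tissue composition differed between the same libraries. Thalamus markers (Tcf7l2, Prkcd, Rora, Ntng1) summed to FPKM values of 17.4, 40.1 and 13.2, and to 9.26, 17.1 and 11.5 without Prkcd, which leaves PS19 highest and WT lowest. They were higher in PS19 than WT in 4 of 4, from 0.15 to 1.39, and Slc17a6, the vesicular glutamate transporter of thalamic neurons, had 2.98, 7.48 and 4.46. Syt2, Vamp1, Rims3 and Syt9 were also above WT in PS19; the part of thalamic tissue in their values was not tested. CA1 pyramidal markers (Wfs1, Fibcd1, Mpped1, Pou3f1) summed to 149, 104 and 276, and CA3 markers to 32.5, 30.3 and 31.8. Single markers of both lists differed in direction. In PS19 Zbp1+/- minus WT, 3 of 4 CA1 markers were higher, up to 1.56 (Fibcd1), and Wfs1 was lower, at -0.46. Of the CA3 markers, 3 of 4 were lower in that comparison, down to -0.35, and Grik4 was higher, at 0.45. Inhibitory markers (Gad1, Gad2, Slc32a1, Pvalb, Sst, Vip) summed to 457, 362 and 406, but to 142, 160 and 149 without Sst, and 4 of 6 were higher in PS19 than WT. Pvalb had 31.6, 36.7 and 28.2, with PS19 highest, as for Vamp1 and Syt2; the part of inhibitory neurons in their values was not tested. Oligodendrocyte markers summed to 766, 1347 and 501, with 6 of 6 called lower in PS19 Zbp1+/- than in PS19 (background 5.16%). Microglia markers summed to 157, 544 and 167 and astrocyte markers to 410, 1192 and 513. Without Gfap the astrocyte sums were 312, 424 and 400. The general members Stxbp3, Vamp3 and Snap23 had the same order of libraries as the oligodendrocyte sum, with PS19 highest and PS19 Zbp1+/- lowest; the part of glial cells in their values was not tested. Choroid plexus markers summed to 3109, 1899 and 10.4, and Vamp8 and Stxbp2 were, like that sum, lowest in PS19 Zbp1+/-; the part of choroid plexus in their values was not tested. No marker of these lists was at 0 in any library.

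**Figure D5:**
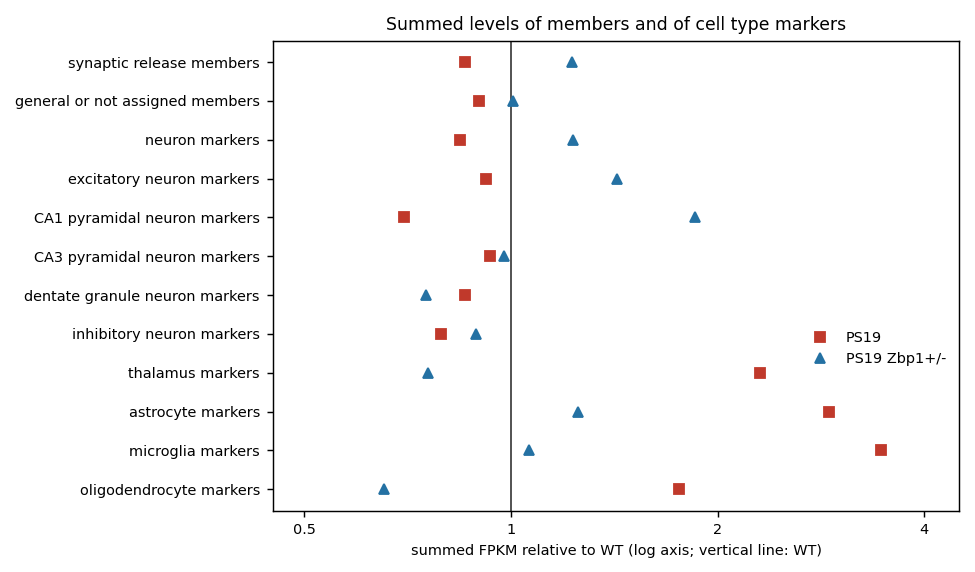
Summed FPKM of the members and of marker lists relative to WT (log axis), PS19 as squares and PS19 Zbp1+/- as triangles. The release members sit at 0.857 and 1.23 of WT and the neuron markers at 0.845 and 1.23, while thalamus markers sit at 2.30 and 0.760 and oligodendrocyte markers at 1.76 and 0.654.

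Further genes of the release pathway, that are not members, were counted in the same way. Of 39 such genes (release site scaffolds, SNARE adaptors and chaperones, transmitter loading and vesicle endocytosis), 25 were lower in PS19 than WT with a median of -0.15, 1 being called higher (background 2.20%) and 0 lower (background 0.291%). In PS19 Zbp1+/- against PS19, 32 of 39 were higher with a median of 0.31, 3 being called higher (background 2.0%) and 0 lower (background 5.16%). Against WT, 31 were higher with a median of 0.28, 1 being called higher (background 1.07%) and 0 lower (background 2.28%). The single call in PS19 minus WT is near the background share. The share of all genes tested that was higher was 46.3%, 53.7% and 51.0% in the 3 comparisons. The neuron markers had medians of -0.23, 0.46 and 0.29. Values of this list are given without the alternative scalings, under which the medians of the members moved. Slc17a7 and Slc32a1 are also in the lists of excitatory and inhibitory markers, so the lists are not separate. The called genes were Slc17a6 (1.09 in PS19 minus WT), Doc2a, a calcium sensor of spontaneous release (1.40 in PS19 Zbp1+/- minus PS19), Cadps2, a priming factor of dense-core vesicles (1.35), Slc17a7, the vesicular glutamate transporter of hippocampal pyramidal cells (1.10), and Bsn, the active zone scaffold bassoon (1.02 in PS19 Zbp1+/- minus WT). Doc2a had a difference of -0.54 in PS19 minus WT. In PS19 Zbp1+/- minus PS19 the lowest were Unc13c at -0.65 and Slc17a6 at -0.64, and against WT Scamp1 at -0.37. Unc13c, a Munc13 priming factor, was also the second highest in PS19 minus WT, at 0.76, and Cadps2 the second highest against WT, at 0.88.

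Level and base composition varied with the differences. Across the 65 members, the difference between PS19 Zbp1+/- and PS19 had a Spearman correlation of 0.53 with the mean level, against 0.35 over all genes tested, and PS19 minus WT had -0.50 against -0.33. The GC content of the longest transcript, known for 64 members, had a correlation of 0.32 with PS19 Zbp1+/- minus PS19, against 0.28 over all genes. These are correlations across genes that share the same libraries. In the highest GC group, above 53.3%, the 13 release members had a median of 0.62 (all genes 0.21), and in the lowest group, up to 46.9%, the 10 release members had a median of 0.44 (all genes -0.11). After the GC and length correction the release members had a median of 0.44 in PS19 Zbp1+/- minus PS19.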

How the data were processed

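RNA extracted with TRIzol went into libraries with a kit of NEB, per the labels' protocols. Trim Galore 0.6.5, STAR 2.5.3a, featureCounts 2.0.4 and the build mm39 are named in the submitters' processing notes. The authors deposited FPKM values for 54532 genes; gene positions in the file match GENCODE M21 on GRCm38 for 98.3% of 54495 IDs and are printed as deposited. Whether counting used strand is not given in the sources used here. Whole reads were recovered for 100% of values, within 0.01 of a whole number. They implied library sizes of 17253479, 17287957 and 15826984. These sizes were above the sums of reads in WT and PS19 and below the sum in PS19 Zbp1+/-. FPKM values and read ratios rest on these sizes, so scaling by total reads lowers PS19 Zbp1+/- against the others. That scaling shifted the median of all genes by -0.16 in PS19 Zbp1+/- minus PS19 and by -0.13 in PS19 Zbp1+/- minus WT.

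Differences, with a pseudocount of 1, were taken over those protein-coding genes that reached an FPKM of 1 in 1 library or both. With 1 library per group no test was possible and no count model was fitted. On simulated data 200 of 200 genes changed 4-fold were called in PS19 minus WT, and 5 of 12206 unchanged genes. The simulated reads carried counting error only, and the changed genes had a mean FPKM of at least 5. The simulation therefore gives no rate of wrong calls between animals, for changes near 2-fold or for weaker genes. Members named in full were the 3 highest of each role, those called, and the 5 with the largest difference in each direction of each comparison, and pathway genes the 2 largest in each direction. Values of some single genes are not reported here, though counts, sums and medians include them. Members and lists were chosen with earlier results of these data known. The neuron-marker alternative and the pairs were chosen after seeing the data. GC content and exon overlaps came from GENCODE M21, near-identical copies (at least 90% over 200 bases) from BLAST 2.17.0, and promoters from RefSeq on GRCm38.p6. Python 3.11.15, pandas 2.3.3 and scipy 1.17.1 were used.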

Additional observations from a re-analysis of the deposited data

How the results depend on the processing

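No member's difference past 2-fold changed sign under any alternative, but the counts and medians near 0 depended on scaling, and the cause was not tested beyond that. For PS19 minus WT, members called higher, 0 as reported, were 3 with a pseudocount of 0.1, under TPM, as read ratios, relative to the neuron markers and at 1.5-fold. Members called lower, 1 as reported, were 0 under the median ratio, TPM, total reads, the GC and length correction, the neuron markers and at 4-fold, and 4 at 1.5-fold. The median of -0.08 was 0.051 under TPM and 0.16 relative to the neuron markers. For PS19 Zbp1+/- minus PS19, members called higher, 2 as reported, were 4 with a pseudocount of 0.1 and as read ratios, 3 with one of 0.5 (Rab3b gained), 1 under TPM, 0 relative to the neuron markers, 14 at 1.5-fold and 0 at 4-fold. Members called lower, 2 as reported, were 0 with a mean FPKM of at least 5, 3 with a pseudocount of 0.1 and after the GC and length correction (Syt2 gained), 7 under TPM, 4 under total reads and as read ratios, 9 relative to the neuron markers, 7 at 1.5-fold and 0 at 4-fold. The median of 0.14 was 0.41 with a mean FPKM of at least 5, -0.12 under TPM, -0.024 under total reads and -0.32 relative to the neuron markers. For PS19 Zbp1+/- minus WT, members called higher, 0 as reported, were 1 with a pseudocount of 0.1 and as read ratios and 5 at 1.5-fold. Members called lower, 2 as reported, were 0 with a mean FPKM of at least 5, 1 after the GC and length correction, 3 relative to the neuron markers (Stxbp2 gained), 5 at 1.5-fold and 0 at 4-fold. The median of 0.17 was 0.031 under TPM, 0.0306 under total reads and -0.12 relative to the neuron markers. Of the single members, 25, 22 and 22 of 65 had another sign under at least 1 alternative in the 3 comparisons. No paired analysis was possible because each genotype has 1 library. Syt8, Vamp9, Cplx4 and Stx19 had 3 reads or fewer in each library, and no difference was detectable at this depth.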
